A study of Mus musculus with 7 samples.

Results

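A set of 10 genes that mark macrophages or neutrophils was followed in preparations of mouse intestinal epithelium after loss of Mob1a and Mob1b. The 10 genes were C1qa, C1qb, C1qc, Adgre1 and Cd68 for macrophages, Cd14, Lyz2 and Itgam, which macrophages, monocytes and neutrophils share, and Csf3r and Retnlg for neutrophils. They were looked for by symbol among the 20887 genes that the array names. Of the 10 genes, 9 were found, through 12 probes, and no probe was matched to Cd68. Array probes were named through their RefSeq accessions, since the scanner files as used here hold accessions and no gene symbols.

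The mice carried floxed alleles of Mob1a and Mob1b on a C57BL/6J background, were male, received tamoxifen (80 mg/kg per day for 2 days) at 8 weeks of age, and gave epithelial cells from the proximal intestine, loosened with 2 mM EDTA. Knockout mice also carried CreERT2, a recombinase that tamoxifen switches on, under the Villin promoter, which is active in intestinal epithelium, so deletion is directed to epithelial cells and not to leukocytes. The arrays came from control mice (2), labelled wild type and described as Mob1a f/f and Mob1b f/f animals without the Cre at day 7 after tamoxifen, and from knockout mice at day 4 (2), day 7 (2) and day 10 (1). The series' design text calls the first time 0 days, names no day 10, and says that different mice were used at each time. With 1 array, day 10 stands for 1 sample. Since controls lacked the CreERT2, its own effects and those of deletion cannot be told apart.

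C1q is the recognition unit of the classical complement pathway. It is built from A, B and C chains, which in most tissues are made mainly by macrophages and related phagocytes. Macrophages are tissue phagocytes that lie beneath the gut epithelium, where they take up dying cells and bacteria. Neutrophils are short-lived blood cells that enter the gut wall when it is injured or infected. The proteins of the other genes serve bacterial sensing (Cd14), killing (Lyz2), adhesion (Itgam) and growth factor signalling (Csf3r).

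The signal of a probe is its background-subtracted brightness in scanner units, and its level is log2 of the signal relative to the 75th percentile of the array. That percentile was 315 to 395 on the first 6 arrays (control, day 4, day 7) and 545 at day 10. By the scanner software, 45.2% to 51.3% of probes stood well above background and no spot was saturated. The epithelial label was borne out by 12 of 12 epithelial genes (among them Cdh1, Krt18 and Vil1), whose mean level lay between 6.94 and 7.36 on every array. The targeted gene Mob1b had signals of 169 on each control array, 71.3 and 67.6 at day 4, 50.4 and 64.5 at day 7 and 86.6 at day 10 (differences from control of -1.43 ± 0.22, -1.59 ± 0.22 and -1.64 ± 0.27, limma adjusted p = 0.19, 0.014 and 0.0070). Mob1a had signals from 20.5 to 33.9 on the first 6 arrays and 120 at day 10, where it was higher than in control by 1.60 ± 0.30 (adjusted p = 0.011), and whether the probes lie in the deleted exons is not known. All arrays lay on 1 slide, with control and day 4 in row 1 and day 7 and day 10 in row 2, so slide row and group cannot be told apart for day 7 or day 10 against control. Precision is limited by the number of arrays.

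The 3 C1q genes follow each other without another gene between them on chromosome 4 in the RefSeq annotation (order C1qb, C1qc, C1qa). Of these neighbours C1qc passed the test at day 10 and C1qb did not, and the 250 bases before the start of C1qb and C1qc are shown here for comparison, from the RefSeq promoter table of GRCm38.p6, 5′ to 3′ on the strand of the gene (minus for both). That table was matched by symbol for 7 of the 10 genes (not for C1qa, Adgre1 and Cd14). Capitals mark GAGGAA on either strand, a core bound by the myeloid factor PU.1. The windows are chr4:136886201-136886450 and chr4:136892915-136893164.
C1qb: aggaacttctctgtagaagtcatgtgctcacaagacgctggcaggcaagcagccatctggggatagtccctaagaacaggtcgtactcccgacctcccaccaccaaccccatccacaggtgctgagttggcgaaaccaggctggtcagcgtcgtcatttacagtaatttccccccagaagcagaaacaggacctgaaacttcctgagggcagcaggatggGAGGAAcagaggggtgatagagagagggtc
C1qc: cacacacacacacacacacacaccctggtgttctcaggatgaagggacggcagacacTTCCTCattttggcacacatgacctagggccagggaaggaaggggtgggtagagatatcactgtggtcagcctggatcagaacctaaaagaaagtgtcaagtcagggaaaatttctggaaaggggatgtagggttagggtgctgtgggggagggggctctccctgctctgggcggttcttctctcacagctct
Each window held 1 match, on the gene's strand 30 bases before the start in C1qb and on the other strand from 193 bases before the start in C1qc (read as TTCCTC). Of all 32851 promoter windows of the same length, 23.3% held the motif on either strand, so a match is a description only. The motif was also found in the windows of Cd68, Itgam and Csf3r, and not in those of Lyz2 and Retnlg.

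C1qa and C1qc were high on the day 10 array alone, and the difference of C1qb did not pass the test. The C1qa probe, for the A chain, gave signals of 58.6 and 58.4 in controls, 54.0 and 57.1 at day 4, 49.0 and 52.9 at day 7, and 670.3 at day 10. The 6 earlier arrays lay close together and the day 10 array stood far above them. In limma, which fitted all 7 arrays and tested 24763 features, C1qa rose 7.16-fold at day 10 over control (log2 difference 2.84 ± 0.27 SE, adjusted p = 0.00098) and 8.36-fold over day 7 (3.06 ± 0.27, adjusted p = 0.0015). The day 10 value in every such test rests on 1 array, which the fit assumed to vary like the other groups. In RNA from a mixed preparation, more cells of a type and more RNA per cell cannot be told apart.

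C1qc, the C chain, was printed on the array in 10 spots, which gave a check of the measurement itself. Averaged over its spots, its signal was 46.3 and 55.4 in controls, 45.3 and 56.6 at day 4, 40.0 and 57.0 at day 7, and 602.6 at day 10. On the day 10 array the 10 spots ranged from 569 to 652, with a coefficient of variation of 3.91%, and on the other arrays the lowest and highest single spots were 29.1 and 98.4. No spot of an earlier array reached the lowest spot of day 10. C1qc rose 7.45-fold over control (2.90 ± 0.32, limma adjusted p = 0.0017) and 8.01-fold over day 7 (3.00 ± 0.32, adjusted p = 0.0026). Its log2 differences from control were -0.15 ± 0.26 (day 4) and -0.11 ± 0.26 (day 7), with overlapping arrays.

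C1qb, the B chain, had signals of 273.7 and 321.8 in controls, 286.8 and 270.7 at day 4, 348.3 and 330.6 at day 7, and 657.9 at day 10. After scaling, its day 10 level of 0.27 was above the control levels of -0.20 and -0.20 and the day 7 levels of 0.06 and -0.12. The difference from control was 0.47 ± 0.25 (limma adjusted p = 0.22), with a 95% interval from -0.14 to 1.09. That interval lies below those of C1qa (2.19 to 3.49) and C1qc (2.11 to 3.68), although the difference between chains was not itself tested. Against control, C1qb stood at -0.24 ± 0.21 on day 4 and 0.17 ± 0.21 on day 7, each without overlap of arrays and neither past the test (adjusted p = 0.93 and 0.67).

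**Figure D1:**
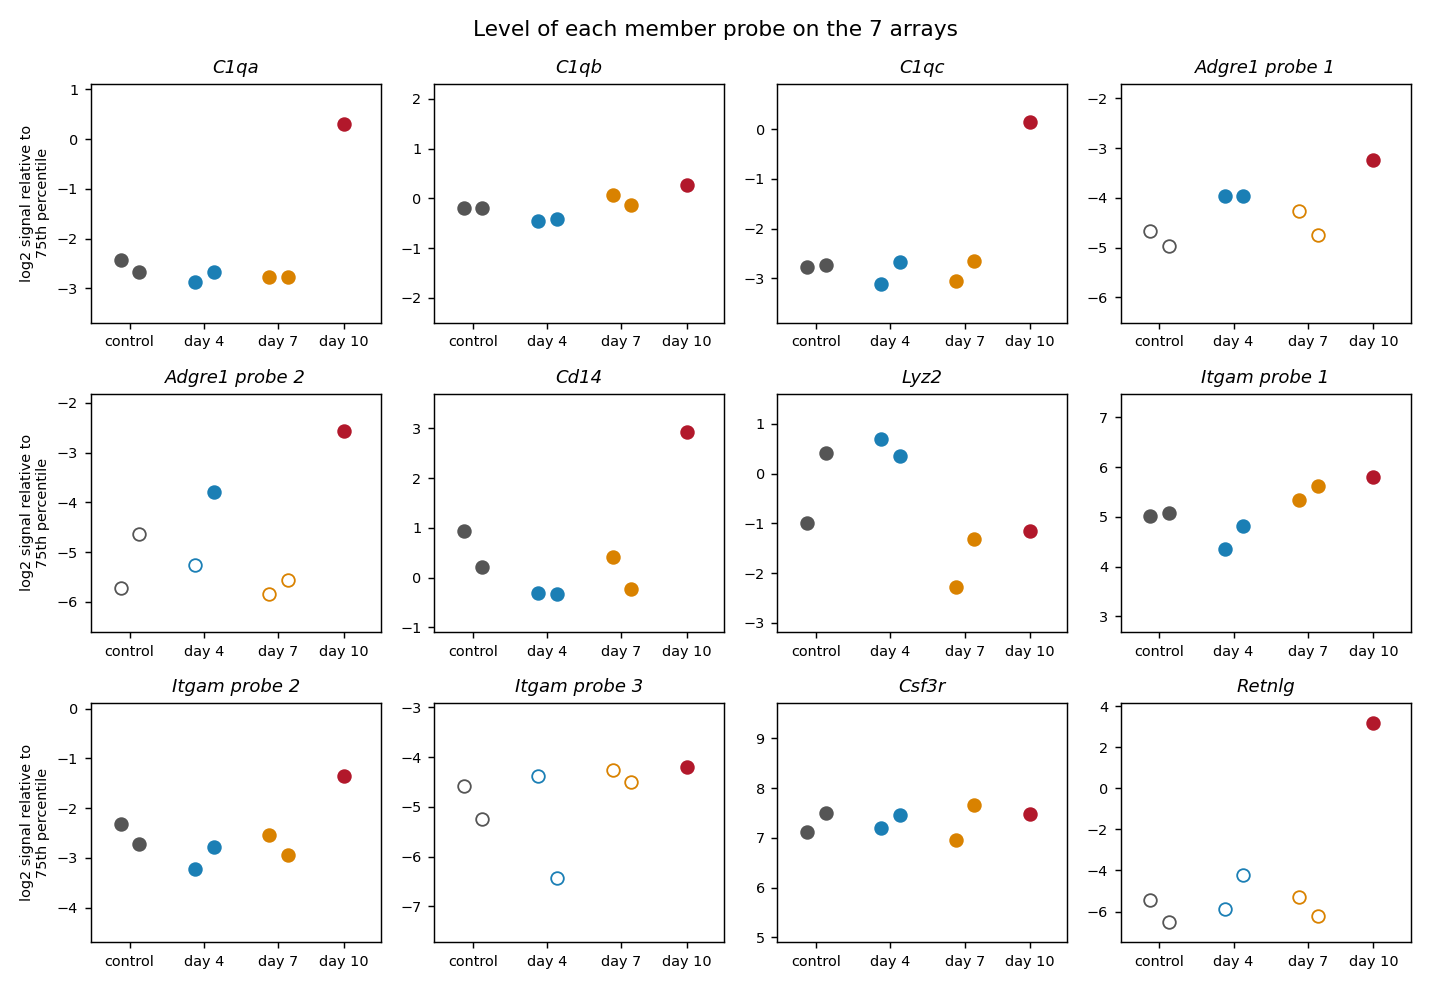
Level of each of the 12 probes (log2 signal relative to the 75th percentile of the array, 1 point per array) in control, day 4, day 7 and day 10 samples. Filled points were well above background, open points were not, every panel spans at least 4.8 log2 units, and probes of a gene are numbered from the brightest. C1qa, C1qc, Cd14 and Retnlg stand apart at day 10, while Csf3r does not.

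Adgre1 encodes F4/80, the surface receptor by which mouse macrophages are usually recognised. Its brighter probe had signals of 12.5 and 11.8 in controls, 25.3 and 23.1 at day 4, 17.3 and 13.4 at day 7, and 57.7 at day 10. It was well above background on the day 4 arrays and the day 10 array, and on no control or day 7 array. Adgre1 rose at least 2.89-fold at day 10 over control (limma adjusted p = 0.014) and at least 2.29-fold over day 7 (adjusted p = 0.041). Here and below, "at least" sets the bright group against the lowest signal that was well above background on the dim arrays, or the probe's own signal there if higher.

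The day 4 values of Adgre1 were at least 1.75-fold those of controls, with no overlap, and did not pass the test (0.85 ± 0.26, adjusted p = 0.60). The other Adgre1 probe had signals of 5.93 and 14.9 in controls, 10.3 and 26.0 at day 4, 5.77 and 7.59 at day 7, and 91.8 at day 10, and only 1 day 4 array and the day 10 array were well above background. In the fit with each probe as its own feature it rose at least 4.30-fold at day 10 over control (adjusted p = 0.035), having passed the filter only with the day 10 array. The call of Adgre1 at day 10 over control ended with normexp background correction, where the difference was 0.04, and without control replicate 2. Normexp adds an offset, and the part of the offset in that loss was not tested. Over its 14 alternatives the adjusted p went from 0.0077 to 0.93. The call over day 7 held in 5 of 14 alternatives, with adjusted p from 0.012 to 0.96, and ended when any 1 of control replicates 1 and 2, day 4 replicates 1 and 2 and day 7 replicate 2 was left out (0.063 to 0.091).

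Cd14, the co-receptor that hands bacterial lipopolysaccharide to Toll-like receptor 4, was well above background on all 7 arrays. Its signals were 602.7 and 430.4 in controls, 319.0 and 287.8 at day 4, 441.6 and 306.7 at day 7, and 4153 at day 10. The day 4 arrays lay below both controls, the day 7 arrays overlapped them, and the day 10 array was far above all. Cd14 rose 5.10-fold over control (2.35 ± 0.41, limma adjusted p = 0.0088) and 7.17-fold over day 7 (2.84 ± 0.41, adjusted p = 0.0070). The day 4 difference from control was -0.90 ± 0.34 (adjusted p = 0.75), and that of day 7 was -0.49 ± 0.34 (adjusted p = 0.44).

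The receptor complex that Cd14 serves was measured alongside. Tlr4, the signalling receptor, was well above background on 1 control array and the day 10 array only, and rose by 1.65 ± 0.41 over control (adjusted p = 0.028). Ly96, its lipopolysaccharide-binding partner MD-2, differed by 0.38 ± 0.31 (adjusted p = 0.40). Of the 10 tested genes of the lipopolysaccharide and Toll-like receptor list, 3 rose at day 10 (Tlr2, Tlr4 and Tirap) and none fell, with a median difference of 0.73 against -0.15 over all features. Tlr4 passed the filter only with the day 10 array, where it was high, so its test, that count and that median carry this limit. Tlr2, a receptor for bacterial lipoproteins, rose by 2.86 ± 0.42 (adjusted p = 0.0047). At day 7 no gene of this list passed. Of all features 10.5% rose and 17.6% fell at day 10 over control, and 7.46% were called at day 7.

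Lyz2, the lysozyme gene of macrophages, monocytes and neutrophils, had a different course. Its signals were 157.9 and 495.1 in controls, 644.2 and 460.2 at day 4, 68.5 and 145.1 at day 7, and 246.8 at day 10. The day 7 arrays were below all control and day 4 arrays, the controls were far apart from each other, and the day 10 array lay above day 7 and below both controls on the scaled axis. Lyz2 differed by -2.32 ± 0.54 between day 7 and day 4 (limma adjusted p = 0.091), by -1.51 ± 0.54 between day 7 and control (adjusted p = 0.17) and by -0.86 ± 0.66 between day 10 and control (adjusted p = 0.38). None of these passed. With only the probes well above background on all 7 arrays, where fewer features are tested, the step from day 4 to day 7 passed (adjusted p = 0.048), and over its 18 alternatives the adjusted p went from 0.048 to 0.35.

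Lyz1, the lysozyme gene of Paneth cells, is a close relative of Lyz2, and which of them a probe measured is uncertain. The Lyz1 probe gave 62966 and 58867 in controls, 59666 and 63844 at day 4, 20839 and 35061 at day 7, and 14514 at day 10. The day 7 difference of Lyz1 from control was -1.19 ± 0.29 (adjusted p = 0.067), and at day 10 Lyz1 fell by 2.75 ± 0.36 (adjusted p = 0.0030). Lyz2 and Lyz1 were thus both lower at day 7 than in control by their means, and the part of one in the signal of the other was not tested.

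Itgam encodes CD11b, the alpha chain that pairs with Itgb2 to form complement receptor 3, and was measured by 3 probes. The brightest probe, which represents the gene in the fit, had signals of 10243 and 12530 in controls, 8113 and 10122 at day 4, 13571 and 17647 at day 7, and 30328 at day 10. The second had 63.3 and 56.1 in controls, 42.4 and 52.3 at day 4, 57.5 and 46.6 at day 7, and 212.9 at day 10. The third stayed between 4.17 and 19.1 on the first 6 arrays, where it was not well above background, and reached 29.8 at day 10. The brighter probes were both highest at day 10 on the scaled axis, and the third has no measured order. The probes differed widely in brightness, and what else the brightest might detect was not tested.

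By the brightest probe, the difference of Itgam from control was 0.74 ± 0.30 on day 10 (limma adjusted p = 0.12), 0.43 ± 0.25 on day 7 (adjusted p = 0.37) and -0.47 ± 0.25 on day 4 (adjusted p = 0.89). With quantile normalization the day 10 difference was 1.13 and passed (adjusted p = 0.036, the lowest of 15 alternatives, which went up to 0.28). The second probe differed by 1.16 ± 0.35 at day 10 over control (adjusted p = 0.053) and rose by 1.38 ± 0.35 over day 7 (adjusted p = 0.043) in the fit with each probe as its own feature. Itgb2, the partner chain, had signals from 138 to 179 on the first 6 arrays and 467 at day 10, a difference from control of 0.84 ± 0.30 (adjusted p = 0.089).

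Retnlg, a small secreted protein of the resistin family found in mouse neutrophils and bone marrow, went from undetected to bright. Its signals were 7.15 and 4.06 in controls, 6.66 and 19.3 at day 4, 8.45 and 4.84 at day 7, and 4923 at day 10. It was not well above background on any of the first 6 arrays and was well above it at day 10. This makes it at least 252-fold higher at day 10 than in controls and at least 195-fold higher than at day 7. A feature had to be well above background on at least 2 arrays to be tested, so Retnlg was not in the fit. When 1 array was enough, a filter chosen after seeing the data, limma gave a difference of 9.16 ± 0.83 from control (adjusted p = 0.0016), and with no filter the adjusted p was 0.0020. A gene kept only because of its day 10 signal had to differ at day 10, so these values describe Retnlg and lend nothing further.

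The 250 bases before the start of Retnlg are given, since it was measured above background at day 10 alone, from the same table (plus strand, chr16:48872358-48872607), with capitals for TTGCNNAA on either strand, a form of the site of C/EBP factors, which are active in neutrophil precursors.
Retnlg: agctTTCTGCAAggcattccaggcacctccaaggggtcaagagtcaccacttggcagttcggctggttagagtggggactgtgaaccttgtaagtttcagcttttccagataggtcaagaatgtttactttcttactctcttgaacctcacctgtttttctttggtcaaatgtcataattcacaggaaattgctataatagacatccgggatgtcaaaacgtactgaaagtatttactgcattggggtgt
It held 1 match, on the other strand at 246 bases before the start, and no GAGGAA. Of all 32851 windows, 9.6% held TTGCNNAA on either strand. Among the 7 windows it was otherwise found in that of Cd68 alone.

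Other resistin family genes were measured too. Retnlb, a product of goblet cells, had signals from 10.5 to 95.1 on the first 6 arrays and 1544 at day 10, and rose by 4.43 ± 0.73 over control (adjusted p = 0.0069). Retnla was well above background at day 10 alone (102.4, at least 5.23-fold over control), and no array had Retn well above background (16.2 at day 10). The resistin genes are related in sequence, and cross-hybridisation between their probes was not tested.

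Csf3r, the receptor for granulocyte colony-stimulating factor, gave overlapping values in all 4 groups. Its probe was bright on every array, controls included, with signals of 43449 and 67221 in controls, 57632 and 63818 at day 4, 41140 and 73193 at day 7, and 97932 at day 10. On the scaled axis the day 10 level of 7.49 lay inside the control range of 7.11 to 7.51 and the day 7 range of 6.95 to 7.67. The difference from control was 0.02 ± 0.32 at day 4, 0.00 ± 0.32 at day 7 and 0.18 ± 0.39 at day 10 (limma adjusted p = 0.76), with a 95% interval at day 10 from -0.76 to 1.13. No array had the ligand gene Csf3 well above background, and its highest signal, 24.8, was at day 10. What else the Csf3r probe might detect in epithelium was not tested.

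Counted together, none of the 8 tested members passed by limma at day 4 (0.0323% of all features were called, all higher), at day 7 over control (7.46% were called, 2.96% higher and 4.5% lower) or from day 4 to day 7 (2.67%, of which 1.24% higher and 1.43% lower). At an unadjusted p under 0.05 there were 2 at day 4 (Adgre1 and Cd14), 1 at day 7 (Lyz2) and 2 from day 4 to day 7 (Lyz2 and Itgam), against 1543, 5607 and 4306 of all 24763 features. At day 10 over control 4 of 8 rose (C1qa, C1qc, Adgre1 and Cd14) and none fell, where 28.1% of all features were called (10.5% higher and 17.6% lower). At day 10 over day 7 the same 4 genes rose, where 17.9% were called (7.2% higher and 10.7% lower). The median difference at day 10 over control was 1.16 over the 8 members and -0.15 over all features, and at day 7 it was -0.05 and -0.08. Both day 10 comparisons use the same day 10 array. Adgre1 passed the filter only through day 4 and day 10 arrays, where it was higher than in controls, although the day 4 arrays alone sufficed. The counts and medians over members include Adgre1 with that limit. The share of calls that were higher, 37.2% at day 10 over control, was 27.6% with median scaling and 49.2% with scaling to probes detected on all arrays, and these scalings moved the median difference of all features by -0.20 and 0.23. C1qa, C1qc and Cd14 were called under all 15 alternatives in both day 10 comparisons.

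**Figure D2:**
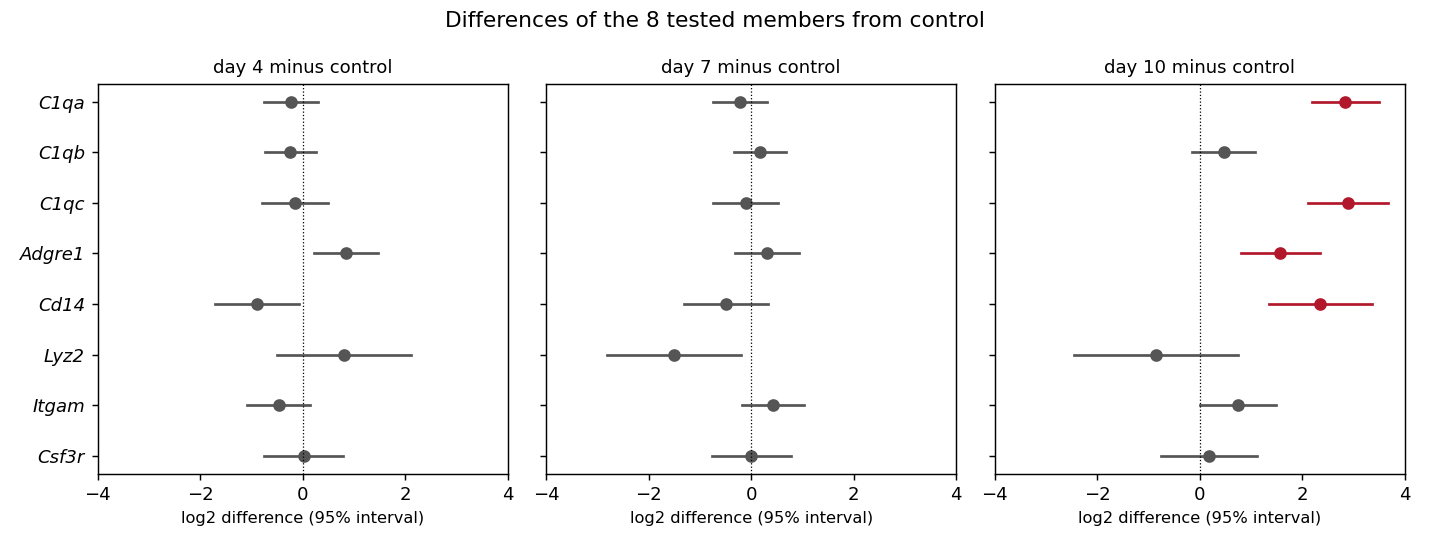
Log2 difference of each tested member from control at day 4, day 7 and day 10 (points) with the 95% interval from limma (lines, red where the adjusted p was under 0.05). At day 4 and day 7 no member passed, and at day 10 C1qa (2.84), C1qc (2.90), Cd14 (2.35) and Adgre1 (1.57) did. Adgre1 was kept by the filter only through day 4 and day 10 arrays.

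Among 24 other macrophage genes, 16 could be tested and 3 more were well above background at day 10 only (Fcgr1, Trem2 and Gpnmb), while 5 never were (Cd163, Timd4, Siglec1, Vsig4 and Folr2). At day 10 over control 9 rose and 4 fell, with a median of 2.19 against -0.15 over all features, of which 10.5% rose and 17.6% fell. Csf1r, the receptor on which macrophage survival depends, gave signals from 371 to 517 on the first 6 arrays and 7487 at day 10, a rise of 3.32 ± 0.33 (adjusted p = 0.0011). Mrc1, the mannose receptor, which 1 of 2 control arrays measured above background, rose by 5.99 ± 0.59 (adjusted p = 0.0011), and Fcgr3, an immunoglobulin receptor, at least 19.3-fold (adjusted p = 0.00043). Mertk, Lyve1 and Stab1 were among those that fell. Mertk, a receptor for the uptake of dying cells, went from 5013 and 5481 in controls to 1321 and 1962 at day 7 and 180 at day 10, and fell by 1.73 ± 0.33 over that first step (adjusted p = 0.034) and fell by 5.54 ± 0.41 to day 10 (adjusted p = 0.00049). At day 7 Mertk was the only gene of this list that passed against control.

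Among 24 other neutrophil genes, 23 had a probe, 10 could be tested and 10 more were well above background at day 10 only, as Retnlg was, while 3 never were (Cxcr1, Prtn3 and Ctsg). For this list and the macrophage list, the share of all genes detected at day 10 alone was not counted. The day 10 array had the most probes well above background (51.3%, against 45.2% to 49.8% on the others). Of the 10 tested, 7 rose and 1 fell (Mpo) at day 10 over control, with a median of 2.15, where 10.5% of all features rose and 17.6% fell. S100a9, a subunit of calprotectin, had signals of 4.69 and 4.03 in controls, 3.10 and 6.81 at day 4, 145 and 44.9 at day 7, and 81370 at day 10. It was not well above background in controls or at day 4, rose at least 6.48-fold at day 7 (adjusted p = 0.019) and at least 4158-fold at day 10 (adjusted p = 0.00029). S100a9 passed the filter only through the day 7 and day 10 arrays where it was high, so its tests carry the same limit as those of Retnlg. Asprv1 passed it only with the day 10 array. Both are among the 7 that rose, so that count and the median carry the limit too. Elane, neutrophil elastase, had 878 and 491 in controls and 791 at day 10, a difference of -0.41 ± 0.47 (adjusted p = 0.56). Cebpe, a transcription factor of granulocyte precursors, rose by 2.58 ± 0.49 (adjusted p = 0.012). S100a9 was the 1 gene of this list that passed at day 7 against control.

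Of 7 tested genes for colony-stimulating factors and their receptors, a list without Csf3r, 6 rose at day 10 over control, with a median of 3.32. Csf1r is in this list and in that of the other macrophage genes, and is counted in both. Of all features 10.5% rose, and Csf3 was not tested. Csf1, the macrophage growth factor, had signals from 41.8 to 66.6 on the first 6 arrays and 5020 at day 10, a rise of 5.85 ± 0.39 (adjusted p = 0.00037). Csf2rb and Csf2rb2, receptor chains for granulocyte-macrophage colony-stimulating factor and its relatives, rose by 4.47 ± 0.37 and 5.14 ± 0.42 (adjusted p = 0.00065 for each, with 1 of 2 control arrays above background for Csf2rb2). Csf2ra and Csf2rb2 had passed at day 7 already (1.42 ± 0.25 and 1.59 ± 0.35 over control, adjusted p = 0.026 and 0.048).

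By Pearson's r over the 7 arrays, among 11697 genes well above background on all of them, those most like the mean of the 3 C1q chains were Csf1r (0.997), Fcgr4 (0.995), Traf1 (0.994), Csf2rb (0.994) and Pdlim7 (0.994). Most like Csf3r were Bfar (0.981), Bet1l (0.976), Ttc30a2 (0.974), St6galnac4 (0.965) and Pcgf5 (0.943). These are descriptions. The arrays share 1 slide, and the C1q pattern is set by the day 10 array.

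Complement genes, in whose pathway C1q acts, were called in both directions. Over all features, 10.5% rose and 17.6% fell at day 10 over control, and 2.96% rose and 4.5% fell at day 7. No list was tested against these shares. Of 13 tested, 3 rose and 1 fell at day 10 over control, and 2 rose and 3 fell at day 7, with medians of 0.44 and 0.16. Cd55, which shields cells from complement, rose by 1.79 ± 0.33 at day 7 (adjusted p = 0.030). Its day 10 rise over control was 3.13 ± 0.41 (adjusted p = 0.0030). C2, the protease that follows C1, rose at day 7 (1.89 ± 0.31, adjusted p = 0.020) and differed by 0.33 ± 0.38 at day 10 (adjusted p = 0.56). Cd59a, another shield, was at least 3.30-fold lower at day 7 (adjusted p = 0.010) and at least 3.52-fold lower at day 10 (adjusted p = 0.0024). Cd59a passed the filter only through the control and day 4 arrays, where it was high. Its tests and the counts of complement genes that fell therefore carry the limit given for Retnlg. Of 16 lysosome genes, to which class Cd68 also belongs, 3 rose and 1 fell at day 10 with a median of -0.26. Of 7 tested genes of the beta2 integrins and their ligands, 1 rose and 2 fell at day 10 (median 0.51). The ligand Icam1 rose at least 50.6-fold (adjusted p = 0.0037), and like Tlr4 it passed the filter only with the day 10 array.

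Markers of other leukocytes also moved at day 10, where 10.5% of all features rose over control and 17.6% fell. T cell and intraepithelial lymphocyte genes fell in 11 of 13 tested and rose in none, and their mean level was 1.35 to 1.57 in controls, 1.39 on each day 4 array, 1.62 to 1.64 at day 7 and -1.29 at day 10. Cd3g, a chain of the T cell receptor complex, gave 1273 and 1277 in controls and 70.7 at day 10 (-4.85 ± 0.29, adjusted p = 0.00027). Of 6 tested mast cell and eosinophil genes 4 rose at day 10 and 1 fell, and their mean level was -3.34 to -2.23 in controls, -2.95 to -2.64 at day 4, -1.37 to -0.82 at day 7 and -0.72 at day 10. Of those 4, Fcer1a and Cpa3 passed the filter only through day 7 and day 10 arrays, so the count carries the limit given for Retnlg. Of 12 tested pan-leukocyte genes 2 rose (Cd53 by 1.97 ± 0.26 and Laptm5 by 2.15 ± 0.32) and none fell, with mean levels of -0.15 to 0.08 in controls, -0.16 to -0.12 at day 4, 0.06 to 0.36 at day 7 and 0.34 at day 10. Of 5 tested monocyte and dendritic cell genes 2 rose (Batf3 and Flt3) and none fell, and of 6 B cell and plasma cell genes none passed, with Jchain at -1.28 ± 0.60 (adjusted p = 0.17). Of 12 epithelial genes 2 rose (Cdh1 and Krt18) and 1 fell (Vil1). The part of these shifts in the values of the 10 marker genes was not tested. Day 10 shared its slide row with day 7 and not with control, and the part of slide row in these values was not tested.

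**Figure D3:**
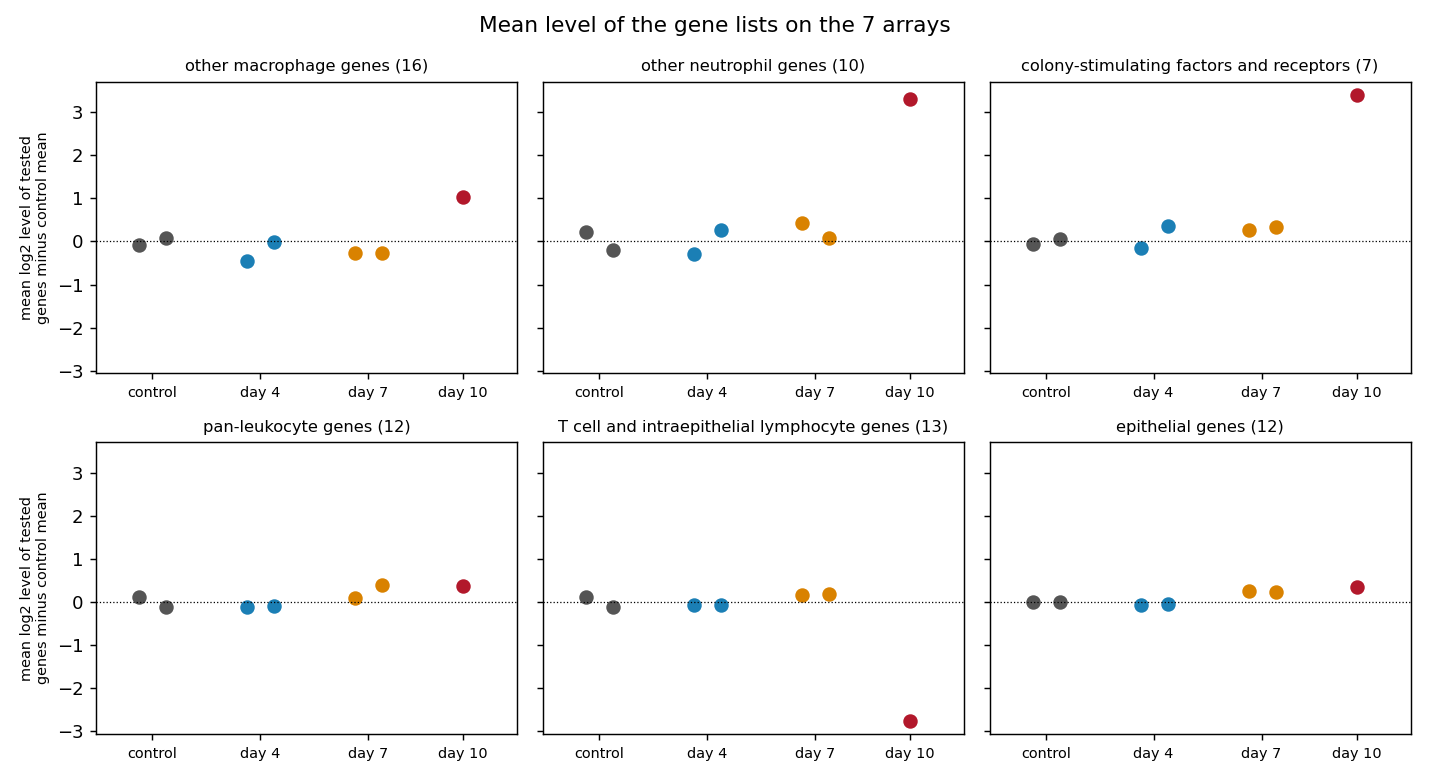
Mean log2 level of the tested genes of 6 lists on each array, as the difference from the mean of the control arrays (the number of genes is in each title, 1 point per array). Macrophage, neutrophil and colony-stimulating factor genes stand higher on the day 10 array, T cell and intraepithelial lymphocyte genes lower (a mean level of -1.29 against 1.35 to 1.57 in controls), and epithelial genes stay within 6.94 to 7.36. Of the neutrophil genes, S100a9 and Asprv1 needed arrays where they were high to pass the filter. Csf1r is in both the macrophage and the colony-stimulating factor list.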

How the data were processed

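Total RNA of 7 samples was hybridised to 1-colour (Cy3) Agilent mouse arrays. Intensity values were deposited as Feature Extraction 11.5.1.1 output, per the file headers, after background subtraction by the scanner software without any scaling of one array to another. The build named in the file headers was mm9. The deposited value table equalled these intensities within 0.1% for single-spot probes and was an alternative.

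Control and outlier spots (115 to 274 per array) were left out, spots of a probe averaged on the log2 scale, and the 75th percentile of each array subtracted. Of 55681 probes 27509 had a RefSeq symbol (GRCm38.p6) and 28172 none. Probes with several symbols were not counted apart. Features had to exceed background clearly on 2 or more arrays, and with the brightest probe per gene they numbered 24763. limma 3.58.1 (R 4.3.3) fitted 1 mean per group (3 residual, 3.16 prior degrees of freedom), two-sided, with Benjamini-Hochberg adjustment over all features, called under 0.05. The fit was tested on simulated data for day 7 against control only, so the day 10 comparisons were not covered. Replicates correlated at 0.985 (control), 0.988 (day 4) and 0.977 (day 7).

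All members were described, and from each of 15 other lists genes with the smallest p at day 7 (up to 3) or day 10 (up to 2), plus close relatives. The lists were counted at day 4 too, where none of their genes passed. Genes printed as a complete set of calls in a list were chosen after their values were seen, and 1 gene of these lists is not reported by name here. The members and lists were chosen with earlier results of these data known. Alternatives were other scalings, normexp (on median spot signals, since mean signals were not used here), other filters, probe averaging, fewer samples, a replicate block and leaving out each array. The p-values set each difference between groups against the spread of arrays within groups, pooled over control, day 4 and day 7. Day 10, with 1 array, adds nothing to that spread.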

Additional observations from a re-analysis of the deposited data

How the results depend on the processing

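Of 40 member differences, recomputed under alternatives to give 667 values, 628 kept direction and side of the threshold, 10 lost the call, 2 gained it and 27 changed sign. All 10 losses concerned Adgre1. Its call at day 10 over day 7 was lost with quantile normalization (adjusted p = 0.072), median scaling (0.094), no filter on dim probes (0.077), without either control replicate (0.063), without either day 4 replicate (0.084) and without day 7 replicate 2 (0.091), and with normexp its difference became -0.029. Of the sign changes, that was the 1 that concerned a called value. The others concerned differences that had not passed the test. They were Adgre1 at day 7 over control with the mean of its probes (-0.11) and at day 7 over day 4 with normexp (0.049), C1qa at day 7 over day 4 with normexp (0.08) and with the deposited value table (0.0050), and C1qc at day 7 over day 4 with median scaling (-0.021). Csf3r at day 7 over control became 0.25 with quantile normalization, 0.045 with scaling to probes detected on all arrays, 0.54 with normexp and 0.023 with the deposited table, and 0.10 at day 7 over day 4 with quantile normalization. With median scaling Csf3r was -0.018 at day 10 over control and -0.016 over day 7. Leaving out 1 array in turn gave -0.37 to 0.078 for C1qc and -0.18 to 0.22 for Csf3r at day 4 over control, -0.31 to 0.09 and -0.36 to 0.36 at day 7 over control, and -0.18 to 0.27 and -0.38 to 0.34 at day 7 over day 4. C1qa at day 7 over day 4 was -0.10 to 0.10, and Csf3r -0.018 to 0.38 at day 10 over control and -0.18 to 0.54 at day 10 over day 7.

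The count of called members was 0 at day 4 and day 7 over control under every alternative, and 0 from day 4 to day 7 except 1 (Lyz2, lower) when probes had to exceed background on each of the 7 arrays. It was 3 to 5 in each day 10 comparison. The count of all called features went from 1 to 27 at day 4 (8 as reported), 522 to 2071 at day 7 (1847, and 522 without control replicate 1), 0 to 1097 from day 4 to day 7 (661, and 0 without day 4 replicate 2), 4581 to 7853 at day 10 over control (6956) and 3245 to 5316 at day 10 over day 7 (4439). Replicate numbers share only a number, with correlations of replicate differences between groups of 0.01, 0.09 and 0.25, and with the replicate block 0 members were called in each comparison without day 10. That block gave 2 features at day 4 against 8. Day 10, a lone array, was not in the block. Dim probes (Adgre1, the dimmest of Itgam, Retnlg before day 10) have no measured order below background.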
